A study of Mus musculus with 3 samples.

Results

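Cells chosen as enteroendocrine (EEC) by their share of Chga and Chgb transcripts made up 110 of the 2545 cells that passed the filters in conventional ENR organoids (4.32%, Clopper-Pearson 95% interval 3.57% to 5.19%). This is the share of cells that met the limits given below, and other EEC cells may lie outside them. These EEC cells carried the genes of serotonin and peptide hormone secretion, and many of them had transcripts of enterochromaffin cells at 2 or more UMIs (Reg4 in 60.9% of cells, Tac1 in 56.4%, Afp in 33.6% and Tph1 in 22.7%), while a smaller number had Cck (12.7%), Gcg (9.09%) or Scg2 (8.18%). Cells rich in Gip or Ghrl, which encode the gut hormones GIP and ghrelin, lay almost all outside them, with 57 and 22 such cells outside and 2 of each inside at 10 or more UMIs. Cells rich in Cck or Gcg also lay mostly outside, with 26 and 19 outside and 9 and 7 inside. The cells were chosen by measured values, namely from ENR cells with at least 1000 and fewer than 8000 UMIs (unique molecular identifiers, each standing for 1 captured mRNA molecule) and 400 or more genes. A cell was taken where Chga and Chgb together held at least 0.5% of its UMIs, the alpha-defensin genes (names starting with Defa) less than 8%, and Neurog3, the gene of the factor that starts EEC fate, at most 1 UMI. Values of these genes are therefore given as a description. The EEC cells are compared with the 2435 other ENR cells, which include cells of every other type and any EEC cell with few granin transcripts.

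The organoids grew from mouse small intestinal crypts. For all its experiments together, the paper names the proximal small intestine of C57BL/6 mice of both sexes, 3 to 6 months old. The sex and exact age of the 1 donor of these libraries are not stated. Cells enriched for stem cells in ENR+CV medium were passaged and then held for 6 days in ENR (50 ng/mL EGF, 100 ng/mL Noggin and 500 ng/mL R-spondin 1), in ENR+CD or in ENR+CV. ENR+CD adds CHIR99021 at 3 uM, a GSK3 inhibitor that drives Wnt signalling, and DAPT at 10 uM, which stops Notch signalling by inhibiting gamma-secretase. ENR+CV adds CHIR99021 at 3 uM and valproic acid at 1 mM, a histone deacetylase inhibitor. Each condition is 1 Seq-Well array, a plate of nanowells that catches single cells with barcoded beads, loaded with cells from 6 wells and 1 donor, so there is no replicate library and all cells of a condition share 1 library. Conditions were therefore not tested against each other, and cells gave no p values. Genes are called higher or lower by a rule of size and counting error, which describes the cells of these libraries and measures no spread between libraries. Intervals are 95% intervals that cover counting error only.

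EEC cells are the hormone-secreting cells of the gut epithelium. They store peptides and amines in dense-core granules packed with chromogranins and secretogranins, cut prohormones to active peptides with prohormone convertases, and release them on a stimulus from the lumen or the blood. In the small intestine they are grouped by product. Enterochromaffin cells make serotonin through the enzyme of Tph1 and the tachykinin substance P from Tac1, and other EEC cells make cholecystokinin (Cck), proglucagon peptides (Gcg), GIP (Gip), secretin (Sct), neurotensin (Nts), somatostatin (Sst) or ghrelin (Ghrl). Single cells can hold several of these.

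The promoters of 3 granin genes are shown because Chga and Chgb define the cells, and Scg2 is described further on. Each is the RefSeq window from 250 bases before to 50 bases after the start of transcription (GRCm38.p6), written 5′ to 3′ on the strand of the gene. Capitals mark the letters TGACGTNA, the core of the cAMP response element. Both strands were searched, and the full palindrome on both strands was counted as 1 match. The windows lie at chr12:102554691-102554990 (+ strand) for Chga, at chr2:132781392-132781691 (+ strand) for Chgb and at chr1:79439977-79440276 (− strand) for Scg2.
Chga: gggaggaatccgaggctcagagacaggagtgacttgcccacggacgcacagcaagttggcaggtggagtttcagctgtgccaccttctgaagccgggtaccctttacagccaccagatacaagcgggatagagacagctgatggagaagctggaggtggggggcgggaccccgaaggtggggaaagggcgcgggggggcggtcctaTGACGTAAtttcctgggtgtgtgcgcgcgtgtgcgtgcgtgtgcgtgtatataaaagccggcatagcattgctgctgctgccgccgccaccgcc
Chgb: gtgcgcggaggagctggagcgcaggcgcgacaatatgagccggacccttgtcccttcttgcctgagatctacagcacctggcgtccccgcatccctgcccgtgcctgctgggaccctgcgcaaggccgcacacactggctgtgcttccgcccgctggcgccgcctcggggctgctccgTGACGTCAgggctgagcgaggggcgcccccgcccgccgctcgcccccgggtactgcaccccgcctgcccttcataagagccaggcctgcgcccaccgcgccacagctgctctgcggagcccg
Scg2: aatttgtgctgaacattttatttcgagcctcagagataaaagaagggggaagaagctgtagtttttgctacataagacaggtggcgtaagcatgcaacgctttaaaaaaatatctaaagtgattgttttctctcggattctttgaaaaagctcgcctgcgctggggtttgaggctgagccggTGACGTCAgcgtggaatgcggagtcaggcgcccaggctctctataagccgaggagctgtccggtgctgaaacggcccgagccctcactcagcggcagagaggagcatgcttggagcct
The match begins at position -44 from the start site in Chga, at -72 in Chgb and at -68 in Scg2. The same letters were found in 963 of 32851 promoter windows (2.93%), or in at least 1 window of 908 of 27025 genes (3.36%). They were in 3 of the 6 granin genes with a window, in 1 of 5 prohormone processing genes (Pcsk1), in 1 of 13 peptide hormone genes (Sst) and in 0 of 10 enterochromaffin genes. A match is a description of the letters and not a measured binding site.

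The 2 granins that chose the cells varied over a wide range among them. Chgb took 0.244% of the UMIs of the lowest EEC cell, 0.923% of the median cell and 7.78% of the highest. Chga was at 0 UMIs in 14 of the 110 cells, with a median of 0.149% and a highest value of 2.83%. Together they took a median of 1.02%, from 0.508% to 10.4%, and the lower values were the common ones. There were 55 cells at 0.5% to 1%, 23 at 1% to 2%, 19 at 2% to 5% and 13 at 5% or more. Just inside the minimum of 0.5% lay 21 cells (0.508% to 0.590%) and just outside, between 0.4% and 0.5%, lay 25 (0.402% to 0.499%). Of those, 17 inside and 12 outside had at least 1 Tac1 UMI, and 5 inside and 14 outside had at least 1 Cck UMI. Of the 128 ENR cells with a granin share of 0.5% or more, 15 were left out for their alpha-defensin share and 3 for Neurog3. In the whole library, 61.4% of cells had no UMI of either granin.

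**Figure D1:**
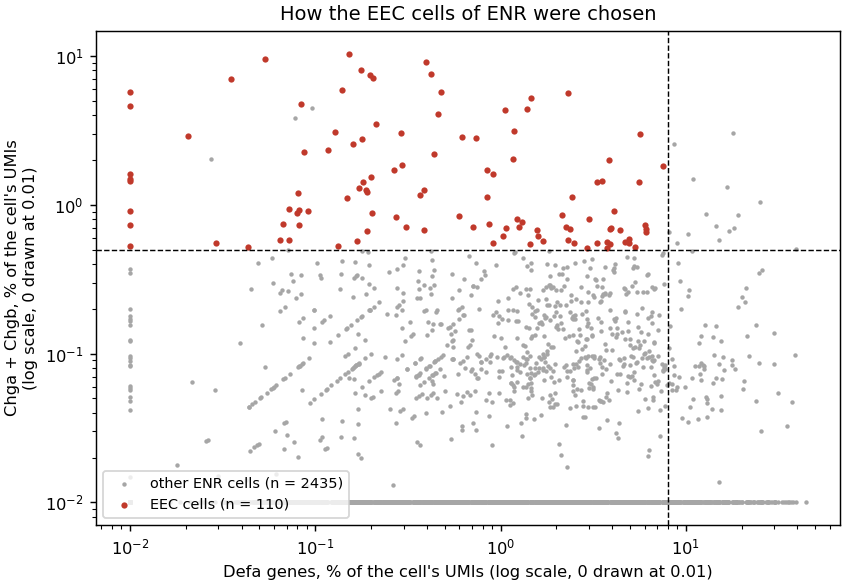
Each point is 1 ENR cell, with the percent of its UMIs on alpha-defensin genes (horizontal, log scale) against the percent on Chga plus Chgb (vertical, log scale), and dashed lines at the limits of 8% and 0.5%. The 110 EEC cells (red) reach down to the line at 0.5% without a gap from the 2435 other ENR cells (grey), and cells at 0 are drawn at 0.01.

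The EEC cells were close to the rest of the library in depth. Their median was 1498 UMIs and 857.5 genes, against 1556 UMIs and 825 genes in the other ENR cells. Mitochondrial genes took a median of 13.9% of UMIs in EEC cells and 14.7% in the others, ribosomal protein genes 8.92% and 11.1%, and the authors' read tables give 16.1 and 15.2 reads per UMI. Summed over cells, the groups hold 219013 and 4876076 UMIs. The 11 deepest EEC cells hold 24.7% of the UMIs of the 110, and 44.3% of their Chgb, 51.2% of their Reg4 and 62.9% of their Afp. None of the 110 barcodes was kept in another library or lay 1 base from another kept ENR barcode, and 0 of the 110 were among the 9 cells that a doublet caller marked in the library (0.354% of 2545 cells, too few to take the caller as working).

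The label was set beside 53 EEC genes, listed with earlier results of these data known, that the choice of cells did not use. They took a median of 1.42% of the UMIs of an EEC cell (quartiles 0.558% to 5.09%) and 0.131% of another ENR cell (0.0508% to 0.295%), with lowest and highest values of 0% and 24.7% in EEC cells and of 0% and 23.3% in the others. Markers of cells outside the epithelium were near 0. Of 8 immune genes, 7 had no UMI in the EEC cells, Ptprc among them, and the summed level was 36.5 CPM (15.8 to 72) in EEC cells and 41.4 CPM (35.9 to 47.6) in the others. Of 10 genes of enteric neurons and glia, 8 had no UMI, with a sum of 32 CPM (12.9 to 65.9) against 12.1 CPM (9.21 to 15.6). Of 10 stroma and endothelium genes, 6 had no UMI, Col1a1, Col3a1 and Pecam1 among them, and Vim was the exception described further on.

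In levels summed over cells (CPM, UMIs per 1000000 UMIs of the group), 538 of 10774 genes compared (4.99%) were higher in EEC cells than in the other ENR cells and 151 (1.4%) were lower. Genes called higher or lower had levels 2-fold or more apart, Poisson intervals that did not touch and 20 or more UMIs over both groups, and the median gene had a log2 ratio of -0.05. The libraries count UMIs from transcript ends, so a level is not divided by gene length and levels of different genes are not ranked here. All 6 granin genes compared were higher, 2 of which (Chga and Chgb) chose the cells, and so were all 5 prohormone processing genes compared, with a median log2 ratio of 4.37. Scg5 and Pcsk1n are on both lists. In the median of a list, here and below, a gene at 0 UMIs in a group was set to 3 UMIs unless stated otherwise. Scg2, which encodes secretogranin II, stood at 498 CPM (409 to 600.4) in EEC cells and 25.8 CPM (21.5 to 30.8) in the others, 19.3-fold (95% interval 14.8 to 25.1) higher. Scg5, the chaperone of prohormone convertase 2, was 28.4-fold (18 to 45.3) higher. Pcsk1, the prohormone convertase that cuts most gut prohormones, was 27.2-fold (21.5 to 34.3) higher at 758 CPM. Cpe, which trims the cut peptides, was 11.6-fold (8.91 to 14.9) higher, and Pam, which amidates their ends, 20.6-fold (14.9 to 28.5). Of the other processing genes, Pcsk2 and Qpct had no UMI in EEC cells. Chgb (GRCm38 chr2:132781278-132795079) stood at 20679 CPM (20081 to 21290.3) against 475 CPM (456 to 495), and Chga (chr12:102554969-102565028) at 4977 CPM (4686 to 5281) against 80.4 CPM (72.6 to 88.8), by choice of the cells.

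The largest ratio among genes with at least 100 UMIs in both groups together was that of Afp, which encodes alpha-fetoprotein, a secreted protein of fetal liver and yolk sac (chr5:90490737-90508907). It stood at 5639 CPM (5329 to 5962) in EEC cells and 48.4 CPM (42.4 to 55) in the others, 117-fold (95% interval 101 to 134) higher, and EEC cells held 84.0% of all Afp UMIs of the library. By cell, 37 of 110 cells (33.6%, 24.9% to 43.3%) had 2 or more UMIs of Afp, against 1.15% of the other ENR cells. In those 37 cells Afp ran from 0.0732% of the UMIs through a median of 0.610% to 6.37%, and 65 EEC cells had none. The highest cell alone held 30.4% of the EEC Afp UMIs. The Afp ratio was 57.4 without the 11 deepest EEC cells, 67.0 as a mean over cells, 71.8 with cells thinned to 1000 UMIs and 274 against cells with no granin UMI. The ratios of the next genes were also large. Ucn3, the peptide urocortin 3, was 72.6-fold (46.7 to 116) higher, Rab3c, a small GTPase of secretory vesicles, 47.4-fold (32 to 71.2), Rgs2, a regulator of G protein signalling, 34.7-fold (24.8 to 49) and Resp18, a protein of endocrine granules, 30.9-fold (22.7 to 42.1). Akr1c14 and Myl7 were each 18.6-fold higher, S100a13 16.6-fold (11.8 to 23.2), and all of these were among the 20 largest ratios.

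All 11 enterochromaffin genes that were compared were higher in EEC cells, 11 of 11 against 4.99% of all genes, with a median log2 ratio of 5.21 against -0.05 over all genes. This list holds Tph1 and Afp, which were given as markers of these cells. It and the other gene lists were drawn up with earlier results of these data known, so such counts are a description. Reg4, a secreted lectin (chr3:98222156-98236748), stood at 17707 CPM (17154 to 18273) against 439.9 CPM (421 to 459), 40.3-fold (38.2 to 42.5) higher. Tac1 (chr6:7554879-7565834), the precursor of substance P, stood at 3776 CPM (3523 to 4042) against 157 CPM (146 to 169), 24-fold (21.8 to 26.6) higher. Tph1 (chr7:46644641-46672537), the rate-limiting enzyme of gut serotonin synthesis, stood at 731 CPM (622 to 853) against 19.7 CPM (15.9 to 24), 37.1-fold (28.6 to 48.3) higher. Other genes of the serotonin path were higher too. Ddc, which makes serotonin from 5-hydroxytryptophan, was 6.21-fold (4.85 to 7.88) higher, Gch1 and Qdpr, which make and restore the tetrahydrobiopterin that Tph1 uses, 9.94-fold (6.97 to 14) and 4.15-fold (3.24 to 5.26). Slc18a2 and Slc18a1, the vesicular monoamine transporters VMAT2 and VMAT1, were 66.8-fold (32.9 to 146) and 19.7-fold (12.4 to 31.2) higher. Of 12 compared genes on the serotonin and amine list, 7 were higher and 0 lower (median log2 ratio 2.08), and Pts, Spr and Pcbd1 of the same cofactor path were within 2-fold of the other cells. Trpa1, an ion channel that opens on irritants, had 55 UMIs in EEC cells and 13 in all others, 94.2-fold (50.8 to 188) higher, and Lmx1a, a transcription factor of enterochromaffin cells, was 44.5-fold (21.4 to 97.7) higher.

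Cell by cell, Reg4 and Tac1 were the most frequent of these transcripts. Reg4 had 2 or more UMIs in 67 of 110 cells (60.9%, 51.1% to 70.1%) and in 17.7% of the other ENR cells, and Tac1 in 62 of 110 cells (56.4%, 46.6% to 65.8%) and 4.35%. Tph1 had 2 or more UMIs in 25 of 110 cells (22.7%, 15.3% to 31.7%) and 0.493% of the others. Thinning every cell to 1000 UMIs left Reg4 at 60.9% of EEC cells and 10.9% of the others, Tac1 at 45.5% and 2.42%, Afp at 27.3% and 0.616%, and Tph1 at 11.8% and 0.246%. Outside the EEC cells Reg4 stood at 439.9 CPM (421 to 459) over all cells, at 527 CPM (409 to 668) in the Gip-rich and 525 CPM (325 to 802) in the Ghrl-rich cells described further on, and at 168 CPM (72.7 to 332) in 16 cells with 2 or more Neurog3 UMIs, and 20 cells had 10 or more Reg4 UMIs. What part of these values is free RNA was not tested. Among the EEC cells with 2 or more UMIs, Reg4 ran from 0.101% through a median of 1.13% to 7.79% of UMIs, Tac1 from 0.0617% through 0.367% to 4.56%, and Tph1 from 0.0618% through 0.164% to 0.662%. Tph1 values were thus low in every cell, with a highest count of 23 UMIs.

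**Figure D2:**
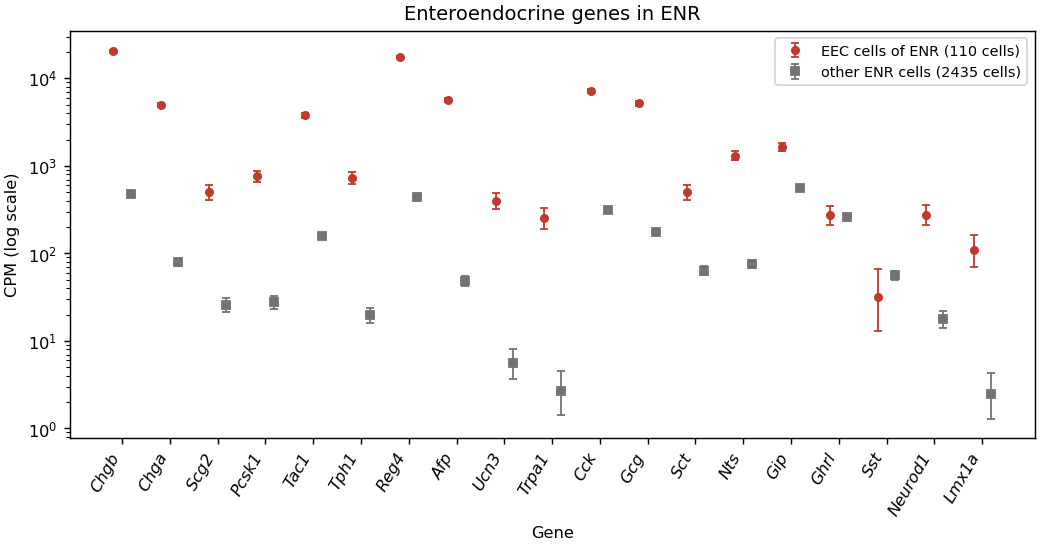
Summed levels in CPM (log scale) of 19 EEC genes in the 110 EEC cells (red circles) and the 2435 other ENR cells (grey squares), with exact Poisson 95% intervals. Afp, Trpa1 and Ucn3 are furthest apart among genes that did not choose the cells, Gip is near, and Ghrl and Sst overlap.

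Of 11 peptide hormone genes compared, 9 were higher in EEC cells and 0 were lower (median log2 ratio 3.73), but apart from Tac1 each had 2 or more UMIs in 14 or fewer of the 110 cells. Cck had 1567 UMIs in EEC cells and stood at 7155 CPM (6805 to 7518) against 311 CPM (295 to 327), 23-fold (21.4 to 24.7) higher. For Cck, 14 of 110 cells (12.7%, 7.14% to 20.4%) had 2 or more of its UMIs, against 9.2% of the other ENR cells. Gcg stood at 5191 CPM (4894 to 5502) against 175 CPM (163 to 187), 29.7-fold (27.1 to 32.5) higher, with 2 or more UMIs in 10 of 110 cells (9.09%, 4.45% to 16.1%), and 1 cell held 51.8% of its UMIs. Without the 11 deepest EEC cells the ratio of Gcg was 4.26, of Cck 11.4 and of Scg2 9.38, and with cells thinned to 1000 UMIs they were 11.2, 12.6 and 10.1. Nts was 17.5-fold (15 to 20.5) higher with 288 UMIs, of which 1 cell held 69.4%, and 3 EEC cells had any. Pyy was 13.3-fold (8.6 to 20.3) higher with 37 UMIs, 91.9% of them in 1 cell. Levels of Nts, Pyy and Gip therefore describe a few cells each. Sct, the hormone that drives pancreatic bicarbonate, was 7.8-fold (6.21 to 9.74) higher and in 24 cells at 1 or more UMIs.

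Gip and Ghrl had smaller ratios than the hormones above. Gip stood at 1662 CPM (1496 to 1842) against 553 CPM (532 to 574), 3.01-fold (2.69 to 3.36) higher, but 1 EEC cell held 74.2% of the UMIs. Without the 11 deepest EEC cells the Gip ratio was 1.03, and Pyy went from 13.3 to 1.43. Ghrl stood at 274 CPM (209 to 353) against 259 CPM (245 to 273), a ratio of 1.06 (0.803 to 1.37). Sst had 7 UMIs in EEC cells, a ratio of 0.565 (0.225 to 1.18). By cell, Gip had 2 or more UMIs in 3.64% of EEC cells and 7.43% of the others, and Ghrl in 7.27% and 5.09%.

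ENR cells with 10 or more UMIs of a hormone transcript show where each hormone lay. With 10 or more Gip UMIs there were 2 EEC cells and 57 other cells, and for Ghrl 2 EEC cells and 22 others. For Cck there were 9 EEC cells and 26 others, for Gcg 7 and 19, for Nts 2 and 11, and for Sst 0 and 5. The enterochromaffin transcripts ran the other way, with 42 EEC cells and 20 others for Reg4, 20 and 5 for Tac1, 19 and 2 for Afp, and 4 and 1 for Tph1. Of the 20 Reg4-rich cells outside, 12 had too large an alpha-defensin share (median over the 20 of 12.1%) and 5 reached the granin minimum. The 2 Afp-rich cells outside reached that minimum and had too large an alpha-defensin share. Of the 5 Tac1-rich cells outside, 1 had too large an alpha-defensin share and 3 too many Neurog3 UMIs. Of the 57 Gip-rich cells outside, 0 reached the granin minimum, with a median granin share of 0.0783% and a highest of 0.487%, while 3 had too large an alpha-defensin share and 3 too many Neurog3 UMIs. Of the 22 Ghrl-rich cells outside, the median was 0.0410% and the highest 0.240%.

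Those Gip-rich cells carried other genes of EEC cells. They were set against the other non-EEC cells with no Gip UMI, and this comparison was chosen after values were seen. Cpe stood at 287 CPM (202 to 395) in the Gip-rich cells and 25.6 CPM (20.9 to 31.1) in the cells without Gip. Scg2 stood at 171 CPM (107 to 258) against 19.8 CPM (15.7 to 24.7), Rbp4, a retinol carrier, at 225 CPM (151 to 323) against 7.28 CPM (4.88 to 10.5), and Isl1, a transcription factor of GIP-secreting and other EEC cells, at 62 CPM (26.8 to 122) against 4.77 CPM (2.87 to 7.45). The choice of EEC cells caps Chga and Chgb in nearly all of these cells, so their values are a description. Chga stood at 93 CPM (48.1 to 163) against 76.3 CPM (68 to 85.4) and Chgb at 930.4 CPM (771 to 1113) against 455 CPM (434 to 476). Against cells without Ghrl the 22 Ghrl-rich cells had more Chga, at 375 CPM (209.7 to 618) against 73.4 CPM (65.5 to 81.9), and less Chgb, at 99.9 CPM (27.2 to 256) against 472 CPM (452 to 493). A minimum on the sum of Chga and Chgb thus left out most of the cells that were rich in Gip or Ghrl. It also left out most cells rich in Cck (26 outside and 9 inside), Gcg (19 and 7), Nts (11 and 2) or Sst (5 and 0). Cells rich in Sct ran the other way (1 and 3).

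**Figure D3:**
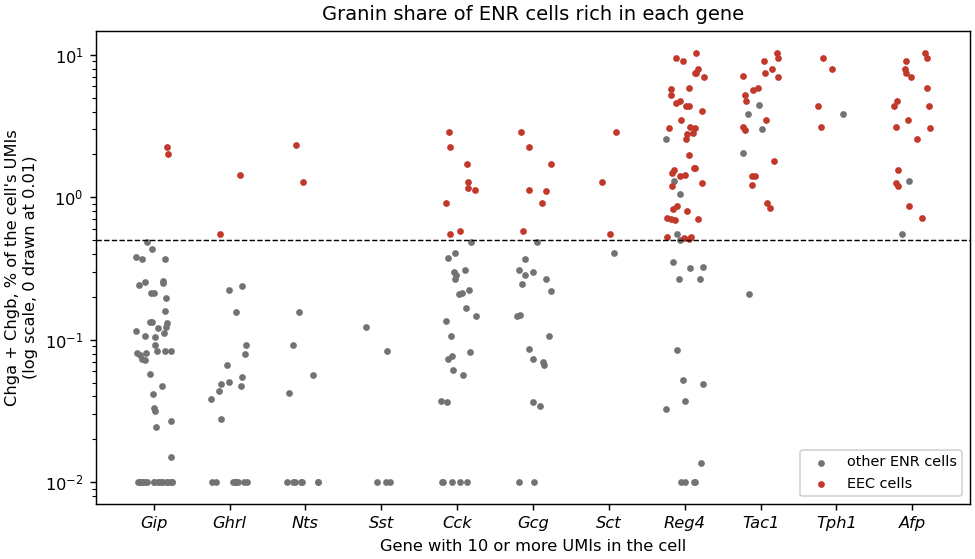
Each point is an ENR cell with 10 or more UMIs of the gene on the horizontal axis, placed by the percent of its UMIs on Chga plus Chgb (log scale, 0 drawn at 0.01, dashed line at the minimum of 0.5%). EEC cells are red and other ENR cells grey. Points for Gip, Ghrl, Cck and Gcg lie mostly under the line (57, 22, 26 and 19 cells outside) and those for Reg4, Tac1 and Afp mostly above it (42, 20 and 19 EEC cells).

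Some transcripts were found in the same EEC cells and others were not. Of the 37 cells with 2 or more UMIs of Afp, 34 also had Reg4 at this level, which is 50.7% of the 67 Reg4 cells. Of the 14 Ucn3 cells, 12 had Afp, and of the 10 Trpa1 cells all 10 did, which is 12 and 10 of the 37 Afp cells. Afp was found with Tph1 in 15 cells, 40.5% of the Afp cells and 60% of the Tph1 cells. Reg4 was found with Tac1 in 38 cells, 56.7% of the Reg4 cells and close to the 56.4% of all EEC cells that had Tac1, and with Tph1 in 17, 25.4% of the Reg4 cells against 22.7% of all EEC cells. Of the 37 Afp cells, 0 had 2 or more UMIs of Cck, of Gcg or of Scg2, which 14, 10 and 9 of the other EEC cells had, and these are small numbers. The Cck cells shared other transcripts. Of 10 Gcg cells 9 had Cck, of 12 Sct cells 8 did, and of 9 Scg2 cells 7 did, out of 14 Cck cells in all. Put together, 66 EEC cells had 2 or more UMIs of Afp, Reg4 or Tph1 without a peptide hormone other than Tac1, and 13 had such a hormone without those genes. Another 11 had both, 12 had Tac1 alone, and 8 had none of these.

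**Figure D4:**
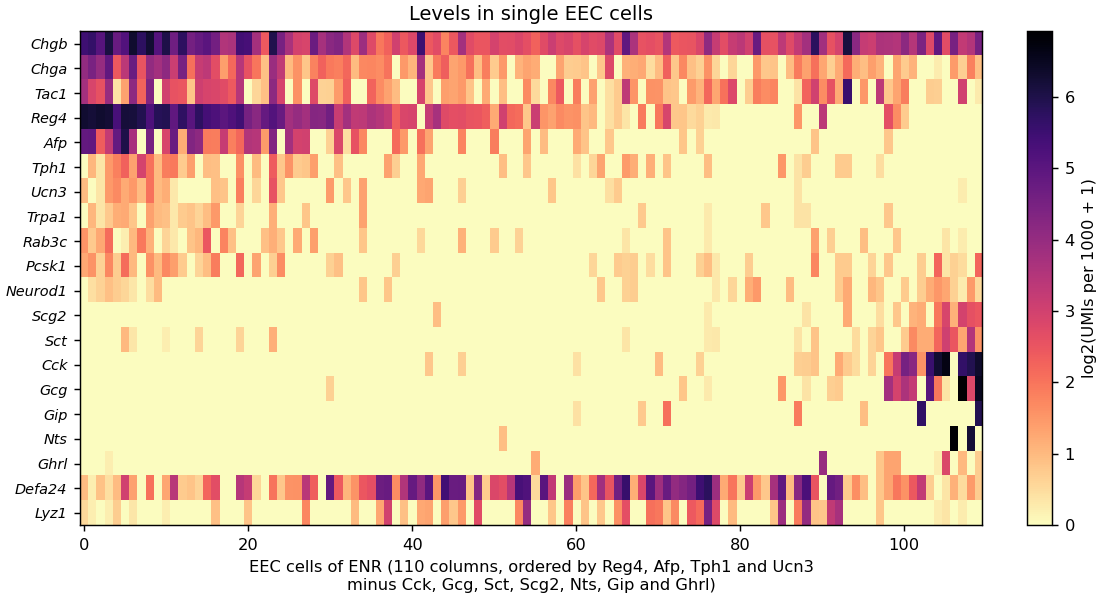
Each column is 1 of the 110 EEC cells and each row a gene, with colour for log2 of UMIs per 1000 plus 1. Columns are ordered by Reg4, Afp, Tph1 and Ucn3 minus Cck, Gcg, Sct, Scg2, Nts, Gip and Ghrl, so that the 37 Afp cells lie mostly at the left and the 14 Cck cells mostly at the right, while Defa24 is spread over most columns.

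EEC cells with 2 or more Tph1 UMIs (25 cells) were compared with those with none (67 cells), leaving out 18 cells with 1 UMI. Of 1529 genes compared, 77 (5.04%) were higher in the Tph1-positive cells and 36 (2.35%) were lower. The Tph1-positive cells were deeper, with a median of 2502 UMIs against 1449, and had a larger granin share, with a median of 2.98% against 0.770%. With every cell thinned to 1000 UMIs, 27 genes were higher and 12 lower. Enterochromaffin genes were on the higher side, with 9 of 10 compared, Tph1 itself among them, and a median log2 ratio of 2.87 against -0.16 over all genes. Afp stood at 14479.5 CPM (13609 to 15391) against 1277 CPM (1080.5 to 1499.7), 11.3-fold (9.54 to 13.6) higher, with 36.5% of the Tph1-positive UMIs in 1 cell. Reg4 was 5.69-fold (5.24 to 6.18) higher and Tac1 3.44-fold (2.92 to 4.07). Ucn3 was 6.36-fold (3.69 to 11.6) higher. Of the serotonin path, Gch1 was 8.43-fold (3.7 to 22.4), Ddc 4.54-fold (2.75 to 7.77), Qdpr 3.69-fold (2.13 to 6.59) and Slc18a2 5.73-fold (2.24 to 17.4) higher, while Slc18a1 had a ratio of 1.64 (0.767 to 3.50). Atf6, a sensor of unfolded protein in the endoplasmic reticulum, had 64 UMIs in Tph1-positive and 7 in Tph1-negative cells and was 15-fold (6.87 to 38.7) higher, though 0 of 8 compared genes of protein folding were. Gstt1, a glutathione transferase, was 10.3-fold (6.29 to 17.6) higher, Rgs2 10.1-fold (5.45 to 20.4) and S100a1 5.03-fold (3.25 to 8.01).

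Peptide hormones were on the lower side in Tph1-positive cells, 7 of 9 compared against 2.35% of all genes, and the other 2 (Tac1 and Ucn3) were higher. Their median log2 ratio was -5.12. Cck had 2 UMIs in 1 of the 25 Tph1-positive cells and 1559 in 18 of the 67 Tph1-negative cells, 476-fold (131 to 3932) lower. Gcg had 4 UMIs in 3 cells and 1132 in 13, 173-fold (67.3 to 635) lower. Scg2 had 2 UMIs in 2 cells and 104 in 10, 31.7-fold (8.57 to 266) lower. Gip and Nts had no UMI in Tph1-positive cells, and theirs lay in 4 and 2 Tph1-negative cells. They were at least 71.2-fold and at least 58.4-fold lower, counted against 3 UMIs in the group. The highest Cck cell had 375 UMIs, the highest Gcg cell 589, the highest Gip cell 270 and the highest Nts cell 200. These ratios therefore describe few cells. Ghrl was 34.8-fold (6 to 1398) lower and Sct 4.37-fold (2.43 to 8.51), and Sct no longer passed with cells thinned to 1000 UMIs (a ratio of 0.383). The enterocyte genes Sis and Fabp1 were 4.23-fold (2.5 to 7.67) and 3.16-fold (1.87 to 5.67) lower. Of 8 Paneth genes compared, 1 (Lyz1) was higher in Tph1-positive cells, against 5.04% of all genes, and 0 were lower. The 13 Paneth genes summed to 22372 CPM (21287 to 23499) against 15294 CPM (14592 to 16020). The median alpha-defensin share was 0.424% against 0.475%. The EEC cell with most Lyz1 UMIs (99) was Tph1-positive, with an alpha-defensin share of 7.58%. Neurod1, the factor of most EEC cells, had a ratio of 0.915 (0.493 to 1.65) and Cpe of 0.734 (0.444 to 1.19).

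The 37 Afp cells and the 14 Cck cells, a comparison chosen after values were seen, had close depths (medians of 1651 and 1660.5 UMIs). Of 913 genes compared, 48 (5.26%) were higher in the Afp cells and 39 (4.27%) lower. Reg4 stood at 39794 CPM (38464 to 41157) in Afp cells and 472 CPM (275 to 756) in Cck cells, 84.3-fold (52.6 to 145) higher. Tph1 was 12.6-fold (4.79 to 47) higher, Chga 11.8-fold (8.32 to 17.4), Tac1 3.31-fold (2.53 to 4.38) and Chgb 2.45-fold (2.23 to 2.7). Rab3c was 9.32-fold (3.05 to 46.3) higher. On the other side, Scg2 had no UMI in Afp cells and 102 in Cck cells, at least 80.3-fold lower, and Gcg none and 1131, at least 890.4-fold lower. Sct was 15.9-fold (8.65 to 32.1) lower, Cpe 4.52-fold (2.67 to 7.84) and Neurod1 3.33-fold (1.72 to 6.61).

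Transcription factors of EEC fate were higher in EEC cells for 13 of 20 compared, and 0 were lower, against 4.99% and 1.4% of all genes, with a median log2 ratio of 2.68. Neurod1, a target of Neurog3 that drives EEC differentiation, stood at 279 CPM (213 to 358) against 17.6 CPM (14.1 to 21.8), 15.8-fold (11.2 to 22.2) higher. Rfx6 was 12.1-fold (7.89 to 18.3) higher, Nkx2-2 12-fold (7.34 to 19.1), Insm1 12-fold (6.7 to 20.9) and St18 13.8-fold (7.58 to 24.4). Sox4, which is also used by precursors, had a ratio of 0.906 (0.627 to 1.27). These are rare transcripts, and Neurod1 had 2 or more UMIs in 16 of 110 cells (14.5%, 8.55% to 22.5%). Neurog3 itself was part of the choice, at 5 UMIs in 5 EEC cells. The 16 ENR cells with 2 or more Neurog3 UMIs, left out or under the granin minimum, had 5093 CPM (4471 to 5776) of Tac1, 694 CPM (478 to 975) of Tph1 and 7870.4 CPM (7093 to 8709.9) of Chgb, but 168 CPM (72.7 to 332) of Reg4 and 63.1 CPM (13 to 184) of Afp. Set beside the EEC cells, their Tph1 interval overlapped, their Tac1 was higher by under 2-fold, and their Reg4 and Afp were lower. Of these 16 cells, 3 had 10 or more Tac1 UMIs and 1 had 16 Tph1 UMIs, so both levels lean on few cells.

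Genes of vesicle release were higher for 10 of 15 compared and ion channels of excitable cells for 5 of 5, against 4.99% of all genes, with median log2 ratios of 3.15 and 3.78. Rab3c stood at 379 CPM against 8, and Snap25, a SNARE protein of vesicle fusion, was 26-fold (13.2 to 51.7) higher. Scgn, a calcium sensor, was 8.91-fold (5.53 to 14) higher and Cplx2, a complexin, 10.9-fold (6.13 to 18.7). Scn3a, a voltage-gated sodium channel, was 27.3-fold (16.5 to 45.4) higher, and the calcium channel genes Cacna2d1 and Cacna1h 7.74-fold (4.09 to 13.9) and 13.8-fold (6.34 to 28.8). Of 5 nutrient and hormone receptor genes compared, 2 were higher (median 1.63). Ffar2, a receptor of short-chain fatty acids, was 17.3-fold (9.31 to 31.8) higher and Gfra3, a co-receptor of artemin, 11.1-fold (5.95 to 20.1), while Slc5a1, the sodium-glucose transporter, had a ratio of 1.05. Receptors were thinly counted, with 9 of 22 at 0 UMIs. Of 18 genes on the study's own list of EEC cells in vivo, 16 were higher (median 3.56). That list was made on other cells, but it includes Chga and Chgb. Malat1, also on it, had a ratio of 1.38.

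Genes of other epithelial lineages were mostly lower than or near the level of the other ENR cells. Median log2 ratios were -1.06 for Paneth, -0.88 for goblet, -0.68 for stem cell and -0.68 for proliferation genes. For enterocyte genes the median was -0.58 with Alpi and Lct, which had no UMI in EEC cells, counted as lowest. With these genes raised as described above for lists it was -0.05, a value that leans on the raised counts. Over all genes 1.4% were lower and 4.99% higher. Of 13 Paneth genes, 7 were lower and 0 higher, and 5 of the 13 are alpha-defensins that the choice of cells limited. Their sum was 17346 CPM (16799 to 17906) in EEC cells and 35916 CPM (35748 to 36084) in the others. Itln1, a Paneth lectin that the choice did not use, stood at 1251 CPM (1107 to 1408) against 2616 CPM (2570.4 to 2661), and Lyz1, the lysozyme of Paneth granules, at 1653 CPM (1487 to 1832) against 2214 CPM (2173 to 2256), under 2-fold apart. Defa24, an alpha-defensin, was found in 100 of the 110 EEC cells at 9438 CPM (9035 to 9854). It stood at 12752 CPM (12366 to 13146) in the 768 ENR barcodes with fewer than 500 UMIs. In the same barcodes Chgb stood at 1618 CPM (1482 to 1762), Chga at 293 CPM (237 to 358), Reg4 at 1103 CPM (992 to 1224) and Afp at 176 CPM (133 to 228). What part of the values of EEC cells is free RNA of these genes was not tested. Within the EEC cells the Paneth sum was 21938 CPM at granin shares of 0.5% to 1%, 25417 at 1% to 2%, 10350 at 2% to 5% and 4616 at 5% or more.

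Of 10 goblet genes compared, 0 were higher or lower, with a sum of 5552 CPM (5244 to 5873) against 8752 CPM (8669 to 8836), and Clca1 and Muc2 had 2 and 10 UMIs. Of 12 enterocyte genes, 1 was higher (Krt20) and 1 lower (Apoa1). Fabp1 stood at 516 CPM (425 to 620.3) against 786 CPM (761 to 811). Tuft genes summed to 54.8 CPM (28.3 to 95.7) against 59.3 CPM (52.6 to 66.5), with Pou2f3 and Gfi1b at 0. Of 24 proliferation genes, 8 were lower (1.4% of all genes) and 0 higher, with a sum of 1909 CPM (1730.0 to 2101) against 3161 CPM (3111 to 3211). Mcm5, a subunit of the helicase that starts DNA replication, had 2 UMIs in EEC cells and was 8.94-fold (2.46 to 74.1) lower, and Mki67 had 47 UMIs and a ratio of 0.548 (0.401 to 0.732). Ect2, which acts in cell division, was 5.45-fold (1.85 to 26.5) lower with 3 UMIs, and Topbp1, of DNA replication, 4.13-fold (1.6 to 15.2) with 4. Mptx2 and Leap2, genes of secreted antimicrobial proteins, were 5.06-fold (1.72 to 24.7) and 6.98-fold (1.92 to 57.9) lower on 3 and 2 UMIs. Ratios of genes with so few UMIs are wide, and 54 genes in place of 151 were lower once every cell was thinned to 1000 UMIs. Mcm5 then no longer passed, at a ratio of 0.388 against 0.168 with all UMIs, both with counts under 3 UMIs set to 3.

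Of 10 stem cell genes, 2 were lower (Olfm4 and Lgr5, against 1.4% of all genes) and 0 higher, and Olfm4 stood at 402 CPM (322 to 495) against 874 CPM (848 to 901). Hes1, the Notch target that holds back secretory fate, was 2.4-fold (1.39 to 4.53) lower, 1 of 11 Notch genes compared, and Hes6 had a ratio of 1.18. Id2 and Id3, targets of BMP signalling, were 2.72-fold (1.86 to 3.88) and 2.53-fold (1.71 to 3.64) higher, while Id1 had a ratio of 1.19. With cells thinned to 1000 UMIs the calls of Hes1, Olfm4 and Lgr5 fell short of 2-fold, at ratios of 0.538, 0.586 and 0.551. Vim, an intermediate filament gene listed with stroma, stood at 361 CPM (286 to 449.6) against 20.1 CPM (16.3 to 24.5), 17.9-fold (13.2 to 24.4) higher and in 34 EEC cells. The collagen genes Col1a1 and Col3a1 had no UMI in those cells. Within the EEC cells Vim was 3.67-fold (2.15 to 6.46) higher in Tph1-positive than in Tph1-negative cells. Stress genes of dissociation were higher for 1 of 11 compared and genes of protein folding for 0 of 15, with Hspa5 at a ratio of 1.13.

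Enterochromaffin transcripts were found in a larger share of the EEC cells with a higher granin share, as a description, since this share chose them. Of the 13 cells at 5% or more, 13 had 2 or more UMIs of Tac1, 10 of Reg4, 10 of Afp, 9 of Tph1 and 6 of Trpa1, and none had 2 or more of Cck or Gcg. Of the 55 cells at 0.5% to 1%, 26 had Tac1, 30 Reg4, 10 Afp, 5 Tph1 and 0 Trpa1. Cck was in 4, 7, 3 and 0 cells from the lowest to the highest of the 4 bands. Median depth was 1385 UMIs in the lowest band and 2155 in the highest, which bears on the share of cells with a rare transcript.

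The same limits were applied to the 2 other arrays. In ENR+CD, 239 of 2383 cells met them (10.03%, 8.85% to 11.3%), and in ENR+CV 3 of 985 (0.305%, 0.0629% to 0.887%). In ENR+CD, 454 cells reached the granin minimum and 198 of them were left out for their alpha-defensin share, against 15 of 128 in ENR. Condition and array cannot be told apart. The 3 ENR+CV cells hold too few UMIs for a comparison of genes, with 128 of Chgb and 34 of Sct among 6554, and no UMI of Afp or Tph1.

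EEC cells of ENR and ENR+CD had close depths (medians of 1498 and 1472 UMIs). Of 5715 genes set side by side, with no test, 246 (4.3%) were past the limits of size and counting error as higher in ENR and 347 (6.07%) as lower, with a median log2 ratio of -0.17. Of 11 enterochromaffin genes, 6 were higher in ENR and 0 lower, with a median log2 ratio of 2.14. Afp had 1235 UMIs in 45 of the 110 ENR cells and 3 in 1 of the 239 ENR+CD cells, 884-fold (302 to 4290.5) higher. Ucn3 had 88 and 1 UMIs, 189-fold (33 to 7544) higher, and Trpa1 55 and 0, at least 39.4-fold higher. Slc18a2 was 23.6-fold (7.41 to 120.3) higher, Lmx1a 7.36-fold (3.08 to 20.2), Reg4 5.78-fold (5.44 to 6.15) and Tph1 4.4-fold (3.34 to 5.85). Slc18a1 had a ratio of 0.906 (0.603 to 1.34) and Tac1, at 3776 CPM (3523 to 4042) and 2142 CPM (2012 to 2279), differed by under 2-fold. Chgb differed by 1.57-fold (1.51 to 1.63) and Chga by 2.23-fold (2.05 to 2.43), both used in the choice.

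Peptide hormones differed in both directions, with 4 of 10 compared higher in ENR and 3 lower, against 4.3% and 6.07% of all genes, and a median log2 ratio of 0.59. Nts had 288 UMIs in 3 ENR cells and 2 in ENR+CD, Cck was 2.8-fold (2.59 to 3.02) and Gip 2.48-fold (2.13 to 2.89) higher in ENR. Sct stood at 498 CPM (409 to 600.4) in ENR and 3533 CPM (3366 to 3708) in ENR+CD, 7.1-fold (5.85 to 8.7) lower, with 24 of 110 and 192 of 239 cells with a UMI. Ghrl was 3.06-fold (2.33 to 4.08) lower in ENR. At a granin minimum of 1%, the ratios of Cck and Ghrl were 1.72 and 0.779 and no longer passed, and Cck was at 1.47 with cells thinned. Scg2 was 2.26-fold (1.84 to 2.81) lower, Cpe 2.47-fold (1.98 to 3.11), Pcsk1n, the inhibitor of prohormone convertase 1, 11.6-fold (4.82 to 36.2), and Hdc, which makes histamine, had 1 UMI in ENR and 139 in ENR+CD, 64.8-fold (11.4 to 2576) lower. Pcsk1 differed by 1.28-fold (1.05 to 1.55) and Neurod1 had a ratio of 0.671 (0.495 to 0.899), neither by 2-fold.

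Markers of other cells differed along with these genes, and over all genes 4.3% were higher in ENR and 6.07% lower. The alpha-defensin share of the chosen cells had a median of 0.448% in ENR and 3.98% in ENR+CD, the Paneth genes summed to 17346 CPM (16799 to 17906) and 47455 CPM (46835 to 48082), with 8 of 13 lower in ENR and 0 higher, and Lyz1 was 2.55-fold (2.28 to 2.87) lower in ENR. Enterocyte genes ran the other way, with 4 of 7 compared higher in ENR, and Fabp1 had 113 UMIs in ENR and 1 in ENR+CD. Clu had 1 UMI in ENR and 195 in ENR+CD, and Ifitm1 0 and 248. Among proliferation genes, 3 of 19 were higher in ENR and 0 lower. In the cells that were not chosen the medians of alpha-defensin share were 0.934% in ENR and 11.3% in ENR+CD. The part of these differences in the values of the EEC cells was not tested.

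**Figure D5:**
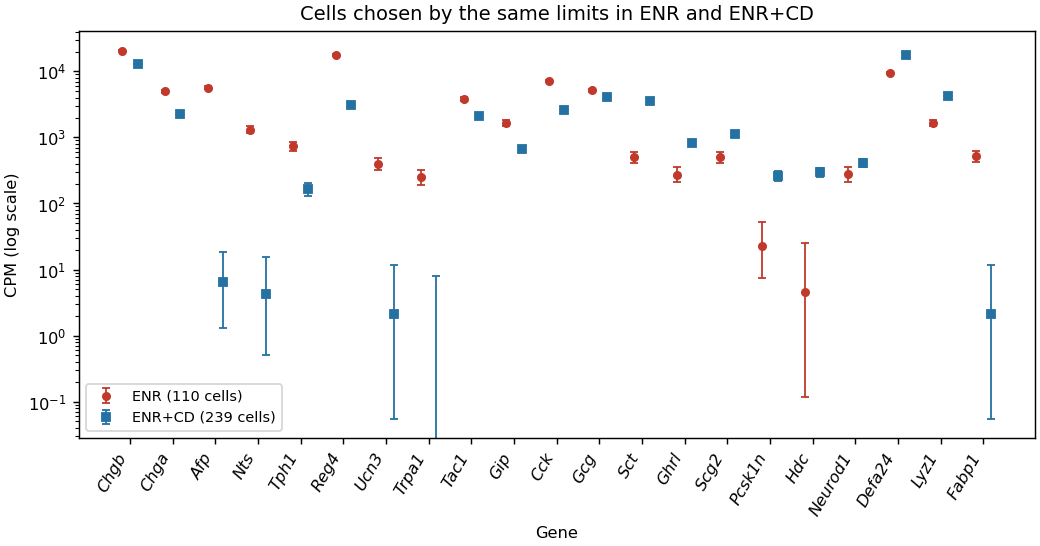
Summed levels in CPM (log scale) with exact Poisson 95% intervals, in the cells chosen by the same limits from ENR (110 cells, red circles) and ENR+CD (239 cells, blue squares). Afp, Nts, Ucn3 and Trpa1 are far higher in ENR, Sct, Pcsk1n and Hdc are lower, and Trpa1 in ENR+CD is at 0 UMIs, so that only its upper bound is drawn.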

How the data were processed

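Seq-Well gave 1 library each of ENR, ENR+CD and ENR+CV organoids. The authors used a Drop-seq portal on Galaxy with mm10 as the genome and collapsed the reads by UMI to raw counts, which they deposited as a merged table of cells and as tables per library. The submitters' processing notes also name bcl2fastq, STAR and Seurat, whose versions (and the gene annotation) the sources used here do not give. In the tables per library, ENR+CD cells lie under the ENR+CV label and the reverse. The median alpha-defensin share was 11.3% in the unchosen cells named ENR+CD and 0.0379% in those named ENR+CV. All 6249 merged cells matched 1 barcode of those tables, and cells were assigned by their names in the merged table.

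The authors' counts were used as deposited. EEC cells were chosen as the report states, with 23271 gene symbols in the table, of which 93.5% were found in GENCODE vM21 (GRCm38) for coordinates. UMIs were summed over the cells of a group and scaled to CPM, with exact Poisson intervals. Intervals are exact binomial for ratios and Clopper-Pearson for shares, and cover counting error only. A group at 0 UMIs was set to 3 UMIs for a bound. Where genes were called or ranked, or ratios of summed UMIs recomputed, any group under 3 UMIs was set to 3. Fold values printed for groups not at 0 UMIs use the counts as they are. Cells were thinned to 1000 UMIs with seed 11. Scrublet (scanpy 1.11.5, expected rate 6%) scored doublets, and none were removed. The calling of genes was tested on simulated sums that held counting error only. The simulation had no spread between cells, so it does not cover genes whose UMIs lie in few cells. Scripts ran in Python 3.11.15 (SciPy 1.17.1, NumPy 2.4.6, matplotlib 3.10.9).

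The members and the gene lists were chosen with earlier results of these data known. Genes were named by a rule: the genes that chose the cells and their markers, members of the EEC lists with at least 20 UMIs in EEC cells, of every other list the 4 with most UMIs, and the largest ratios (20 each way against other ENR cells, 10 each way by Tph1). Genes named outside the rule, among them Sst, Hdc, Apoa1, Krt20, Lgr5, Muc2, Clca1, Rbp4, Isl1 and the genes named for ENR+CD alone, were chosen after their values were seen. Alternatives covered the limits, the thresholds, the thinning and the scaling.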

Additional observations from a re-analysis of the deposited data

Results flagged for a closer look

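Barcodes under the minimum of 1000 UMIs were in none of the groups of cells compared and still held EEC transcripts. Above, only levels in the barcodes with fewer than 500 UMIs were given. Of 2577 ENR barcodes with at least 500 and fewer than 1000 UMIs, 127 met the same limits on granins, alpha-defensins and Neurog3 (4.93%, 4.12% to 5.84%), close to the 4.32% of the kept cells. The results above used none of the barcodes in this range. In those 127 barcodes Tac1 stood at 2941 CPM against 190.0 CPM in the other barcodes of this range, Reg4 at 6698 against 581, Tph1 at 311 against 19.2 and Afp at 773 against 37.2. At 0.5% of so few UMIs, single granin UMIs decide which barcodes are counted.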

How the results depend on the processing

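No paired analysis was possible because each condition is 1 library, and for the same reason no library could be left out. A granin minimum of 0.3% gave 183 EEC cells in ENR and 1% gave 55. Against the other ENR cells, thinning to 1000 UMIs gave 260 genes higher and 54 lower, the 1% minimum gave 255 lower, and leaving out the 11 deepest EEC cells, chosen after seeing the data, 82 lower. The share of EEC cells with Tph1 was 39.1% at 1 or more UMIs, 13.6% at 3 or more, 11.8% thinned and 36.4% at the 1% minimum. For Tac1 it was 73.6% at 1 or more UMIs and 45.5% thinned, for Afp 49.1% at the 1% minimum, and for Cck 20.9% at 1 or more UMIs. Between Tph1-positive and Tph1-negative cells, 68 genes were lower with 3 or more Tph1 UMIs, 41 higher and 21 lower with 50 UMIs in the pair, and 27 and 12 thinned. In ENR+CD, 86 cells met the limits at the 1% minimum and 281 thinned. ENR against ENR+CD then gave 150 higher and 195 lower at the 1% minimum and 142 and 160 thinned. Of the recomputed ratios of single genes, 372 kept their side of the threshold, 20 fell short of it and 1 passed it (Ghrl, 2.20 against cells with no granin UMI). Of the genes first called higher or lower, 0 reversed. Reversals were not counted for genes that were not called, and Ghrl went from 1.06 to 0.753 as a mean over cells. With 219013 UMIs in 110 cells, a gene at under 20 UMIs in the pair could not be called.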
